A study of Tupaia belangeri with 15 samples.

Results

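Glycinergic amacrine cells (ACs) that carry the glycine transporter GlyT1 and little NFIB were chosen by the measured counts of 10 genes in single nuclei of the tree shrew (TS, Tupaia belangeri) retina. A nucleus was a member when it held 2 or more UMIs (unique molecular identifiers, each counting 1 captured RNA molecule) of SLC6A9, the gene of GlyT1, at least 1 UMI of the AC regulators PAX6, TFAP2A or TFAP2B, no UMI of GAD1, GAD2, SLC17A8, RLBP1 or RBPMS, and fewer than 3 UMIs of NFIB. The gate held 3555 of the 119765 nuclei that passed the quality limits, or 2.97%, and between 55 and 440 nuclei of a retina. The 15 libraries had been made, 1 per retina, from 5 infant, 5 mature, and 5 senile TSs, and the libraries held 13429873 to 58734300 UMIs. The stage is what the labels give for each animal, no treatment or genetic change is named, and frozen whole retina was the source in all 3 groups. Senile animals came from another institute than infant and mature ones, so stage and source cannot be told apart in any comparison with the senile group.

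ACs are the inhibitory interneurons of the inner retina, and they use either GABA or glycine. Glycinergic ACs take glycine up through GlyT1, are mostly narrow in their dendritic field, and pass signals vertically between the sublayers of the inner plexiform layer. The AII AC, which couples to ON bipolar cells (BCs) through gap junctions and carries rod signals, is the best known of them, and NFIB, a nuclear factor I family regulator, is found in some glycinergic types and not in others.

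The libraries fell into 2 sets by the Cell Ranger version of their labels, 5.0.1 for 7 retinas (Infancy 1 to 3, Mature 1 and 2, Senile 1 and 2) and 7.0.1 for the other 8. Members had median depths of 1152 to 2277 UMIs in the first set and 2612 to 6128 in the second. Doublets were the nuclei of a library with the highest scores of a doublet caller, at a preset 8 per 1000 nuclei for every 1000 nuclei. They included 252 members, or 7.09%, and 7.18% of cone-gated nuclei. Cone-gated nuclei held 2 or more UMIs summed over the cone genes ARR3 and PDE6C and no UMI of PAX6 or TFAP2A. Any pair of libraries shared 4 to 30 cell barcodes, at most 0.422% of the smaller library. RNA of the lens crystallin CRYAA stood out in several libraries after each nucleus had been thinned to 1500 UMIs. Nuclei with fewer UMIs were dropped, and the gates were applied again to the thinned counts. Thinned members are thus the 1439 nuclei (21 to 262 in a retina) with 2 or more UMIs of SLC6A9 among 1500, not the 3555 members. Nuclei whose NFIB fell below 3 UMIs by thinning could enter. All shares after thinning are of nuclei gated in this way. CRYAA was found in 94.3% of the 35 thinned members of Infancy 4, in 59.7% of the 72 of Infancy 5 and in 89.4% of the 47 of Mature 4. It was found in 4.76% of those of Senile 4 and in none of the other 11 retinas, and cone-gated nuclei reached 89.8%.

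The genes of the gate are described and not tested, since their values chose the members. SLC6A9 was at exactly 2 UMIs in 1541 members (43.4%) and at 5 or more in 702 (19.7%). PAX6 was present in 91.4% of members, TFAP2B in 32.4% and TFAP2A in 24.1%. NFIB was at 0 in 2591 members (72.9%), at 1 UMI in 568 (16%) and at 2 UMIs in 396 (11.1%).

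Outside the gate, the markers set for the label were TCF4, EBF1, EBF2, EBF3 and SLC32A1, and they ranged from most thinned members to none. EBF2 was found in medians of 1.15, 0 and 1.01% of infant, mature and senile thinned members, and EBF3 is given further below. TCF4, a basic helix-loop-helix regulator that the study itself used to tell GlyT1 ACs from GABA ACs, was found in a median of 88.7% of thinned members over the 15 retinas (54.8 to 95.2%). Cone-gated nuclei had a median of 44.7%, too high to serve as a level of free RNA for this gene. For the next genes, of which EBF1 alone was a marker set for the label, the median cone-gated share was lower and served as that level. The cone gate shuts out nuclei with PAX6 or TFAP2A, so this level may be too low for AC genes. The calcium channel subunit gene CACNA2D3 was found in 75.0% of thinned members and 5.93% of cone-gated nuclei. EBF1, a regulator of the early B cell factor family, was found in 39.8% and 3.32% of these classes. LAMP5, a membrane protein of inhibitory neurons, was found in 28.6% and 1.00%, and CCBE1, a secreted matrix protein, in 36.8% and 1.07%. SLC6A5 (GlyT2) was found in no thinned member, and SLC32A1, the vesicular transporter that loads GABA and glycine, had no UMI in any nucleus of the 15 libraries. GAD2 also had no UMI at all and GAD1 had 630 in all kept nuclei, and a gate on the GAD genes held only 11 nuclei, too few for a comparison with GABA ACs. The rule of no GAD UMI could thus remove few nuclei, and GABA ACs may be among the members. The summed GABA AC markers had medians of 458 CPM in members, 311 CPM in GlyT1 nuclei with 3 or more NFIB UMIs and 781 CPM in cone-gated nuclei. Of 3 such markers tested between the first 2 classes, 1 was higher in members and 0 lower.

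At the same depth of 1500 UMIs, further AC, glycine receptor and guidance genes could be set beside the free RNA of cone-gated nuclei. The reelin adaptor DAB1, a marker of AII ACs, was found in a median of 88.1% of thinned members (58.1 to 100%) and 11.97% of cone-gated nuclei. PROX1, a homeobox regulator of AII ACs, was found in 20.3% and 6.61%, EBF3 in 14.6% and 0.933%, and NFIX, of the same family as NFIB, in 11.4% and 0.427%. The glycine receptor subunits GLRA1 (32.3% of members and 4.41% of cone-gated nuclei), GLRA3li1 (25.8% and 10.1%) and GLRA2 (14.1% and 1.71%) were all found more often in members. NRP1, a receptor of secreted semaphorins, was found in 56.9% of members and 3.66% of cone-gated nuclei, and SEMA3A, one of those semaphorins, in 15.8% and 2.46%. The calcium-binding protein CALB2 was found in 12.5% and 2.22%. These shares describe the thinned members with no test, since a gate on counts chose both classes.

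Other genes, some of them known from AII ACs, were found less often in members than in cone-gated nuclei. GJD2, which forms electrical synapses, was found in 3.82% of thinned members and 37.8% of cone-gated nuclei, and CALB1 in 11.4% and 26.9%. The kainate subunit GRIK2 was found in 52.7% and 73.4%, and MEIS2, a regulator of GABA ACs, in 12.4% and 64.9%. These shares were high in cone-gated nuclei, so that class gives no level of free RNA for these 4 genes.

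Senile 2 stood apart from the other retinas. Among its 31 thinned members, TCF4 was found in 54.8% and CACNA2D3 in 35.5%, the lowest shares of the 15 retinas, while MEIS2 was found in 51.6% against a median of 12.4%. The cadherin PCDH15 was found in 67.7% of them, against 2.63 to 32.3% of members in the other 14 retinas. Both genes were frequent in the cone-gated nuclei of Senile 2, MEIS2 in 76.5% and PCDH15 in 99.9%, and the part of cone RNA in these members was not tested. Senile 3 stood apart in the cone-gated nuclei, where SLC6A9 was found in 13.7% (1.48 to 4.66% in the other 14 retinas) and EBF1 in 19.7% (2.63 to 7.69%), against 33.3% of its members for EBF1. The stage comparisons were repeated without each retina, and the comparison with NFIB-rich nuclei, which Senile 2 did not enter, without each of its 14. Without Senile 2, senility against infancy called 53 genes. Without Senile 3 the comparison with NFIB-rich nuclei called 1469 genes, and senility against infancy called 61.

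The limits of the gate lay on slopes. With counts summed over all retinas and scaled to the summed UMIs (CPM), nuclei with 1 UMI of SLC6A9 that met the rest of the gate held 882 CPM of TCF4, 600 CPM of CACNA2D3, 683 CPM of MEIS2 and 547 CPM of the cone arrestin ARR3. Members with exactly 2 UMIs held 1348, 989, 404 and 319.9 CPM of these genes, and members with 5 or more held 1590, 1355, 267 and 232 CPM. TCF4 and CACNA2D3 were thus higher, and MEIS2 and ARR3 lower, at 2 UMIs of SLC6A9 than at 1. The same held at 5 or more UMIs against 2. Members with 4 UMIs held 1599, 1351, 253 and 200.4 CPM, so TCF4, MEIS2 and ARR3 did not go further from 4 to 5 or more. Mean depth was 4013 UMIs at 1, 3812 at 2 and 3243 at 5 or more UMIs of SLC6A9, with the library sets pooled.

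Across the NFIB limit, members with no NFIB UMI held 71.5 CPM of DRD2, the D2 dopamine receptor, and those with 1 and 2 UMIs held 33.7 and 21.7 CPM, against 16.6 CPM just outside the gate, at 3 UMIs. TFAP2B stood at 231, 109, 72.6 and 53.6 CPM in the same bins, LAMP5 at 261, 168, 139 and 122 CPM, and EBF1 at 746, 625, 604 and 424 CPM. Within the library sets LAMP5 and EBF1 were lower in each bin than in the one before, but DRD2 went from 15.5 to 26.4 CPM between 2 and 3 UMIs in the 5.0.1 set (26.1 to 10.8 CPM in the 7.0.1 set), and TFAP2B stood at 93.7, 106.9 and 91.3 CPM at 1, 2 and 3 UMIs in the 5.0.1 set. CACNA2D3 went the other way inside the gate, with 988, 1437, 1545 and 1566 CPM. Within the 5.0.1 set it stood at 952, 1544, 1265 and 1317 CPM in these bins, and within the 7.0.1 set at 1022, 1373, 1745 and 1713 CPM. Per retina, its medians were 1274 CPM in members and 1196 CPM in nuclei with 3 or more NFIB UMIs, and their ranges overlapped. GRIK1li1, the most abundant copy of a kainate receptor gene that marks OFF BCs, stood at 450.3, 1250.0, 1848 and 2004 CPM. The Müller glutamate transporter SLC1A3 stood at 48.9, 95.8, 155 and 162 CPM, and in the 7.0.1 set alone it went from 109.4 CPM at 2 to 81.8 CPM at 3 UMIs. Nuclei with more NFIB were also deeper, with a mean of 3370 UMIs at 0, 4025 at 1, 4312 at 2 and 4566 at 3 UMIs of NFIB.

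**Figure D1:**
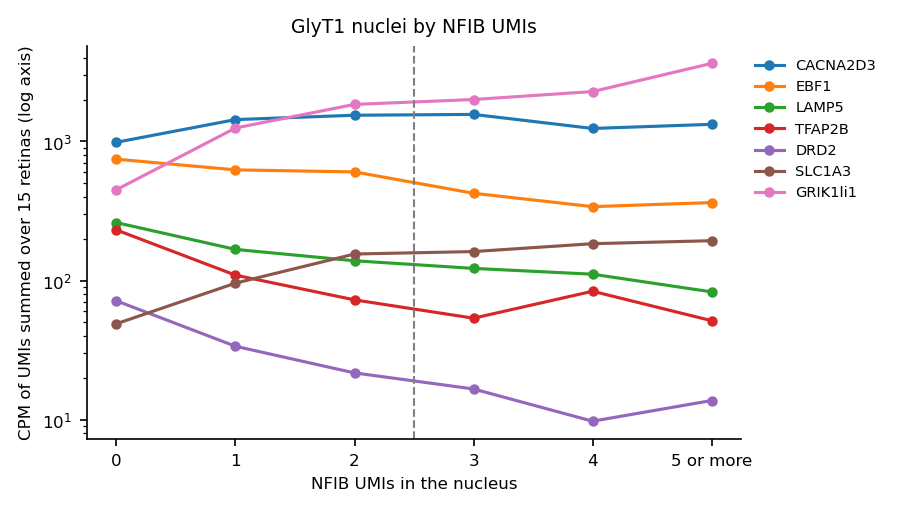
CPM (log axis) of 7 genes in nuclei of the GlyT1 gate against the number of NFIB UMIs in the nucleus, from counts summed over 15 retinas, with the dashed line at the limit of the gate. Over all retinas DRD2, TFAP2B, LAMP5 and EBF1 are lower and SLC1A3 and GRIK1li1 higher at 3 UMIs than at 0, and from 2 to 3 UMIs DRD2 goes up in the 5.0.1 set and SLC1A3 down in the 7.0.1 set.

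The first question was what sets the members apart from GlyT1 nuclei with 3 or more UMIs of NFIB. There were 997 such nuclei, 2 to 155 in a retina, 277 of them from the 7 libraries of the 5.0.1 set and 720 from the 8 of the 7.0.1 set, and 17.9% were marked as doublets against 7.09% of members. In 14 retinas (Senile 2 had only 2 such nuclei and was dropped), edgeR's quasi-likelihood test with the retina as a block called 1527 of 7859 genes (19.4%), of which 746 were higher (9.49%) and 781 lower (9.94%) in members. NFIB chose both classes and is left out.

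Of 10 neuropeptide and amine receptor genes, 7 were higher in members and 2 lower (CHRM3 and DRD1), with a list median log2 difference of 1.48 where that of all genes was 0.01. DRD1, a D1-type dopamine receptor, had a log2 difference of -0.65, which turned to 0.25 and was not called (edgeR adjusted p = 0.62) in nuclei with no UMI of 8 glial genes. DRD2 lay between 25.5 and 112 CPM in members (median 53.2) and between 2.79 and 46.7 CPM in NFIB-rich nuclei (median 17.3), a log2 difference of 2.00 ± 0.20 (edgeR adjusted p = 2.308e-08). The ranges overlapped, but each of the 14 retinas had more in members, a trait that the naming rule asked for. TACR3, the neurokinin B receptor, stood at 32.5 to 91.6 CPM in members and 1.40 to 29.2 CPM in NFIB-rich nuclei, a log2 difference of 1.85 ± 0.16 (edgeR adjusted p = 1.8e-09), with no overlap. OPRM1, the mu opioid receptor, stood at 27.2 to 104 CPM against 5.26 to 56.2 CPM (log2 difference 1.69 ± 0.22, edgeR adjusted p = 1.327e-06), higher in members in 13 of 14 retinas. The muscarinic receptor CHRM2 (log2 difference 1.92) and the nicotinic subunits CHRNA6 (1.50), CHRNB3 (1.46) and CHRNA4 (0.89) also rose.

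TRHDE, the ectoenzyme that degrades thyrotropin-releasing hormone, stood at 1137 to 3668 CPM in members and 146 to 792 CPM in NFIB-rich nuclei (log2 difference 2.21 ± 0.12, edgeR adjusted p = 1.258e-12), with no overlap. C14ORF132 (2.52), the calcium/calmodulin kinase CAMK2A (2.01), GALNT14 (2.01), DLGAP2, a postsynaptic scaffold protein (1.83), the laminin chain LAMA4 (1.81) and DOC2B, a calcium sensor of release (1.81), completed the 10 genes named as higher with DRD2, CHRM2 and TACR3. LAMP5 was at a median of 238 CPM in members and 109.8 CPM in NFIB-rich nuclei (log2 difference 1.21 ± 0.11, edgeR adjusted p = 4.623e-09), and EBF1 at 768 and 441 CPM (0.93 ± 0.12, edgeR adjusted p = 1.159e-06).

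**Figure D2:**
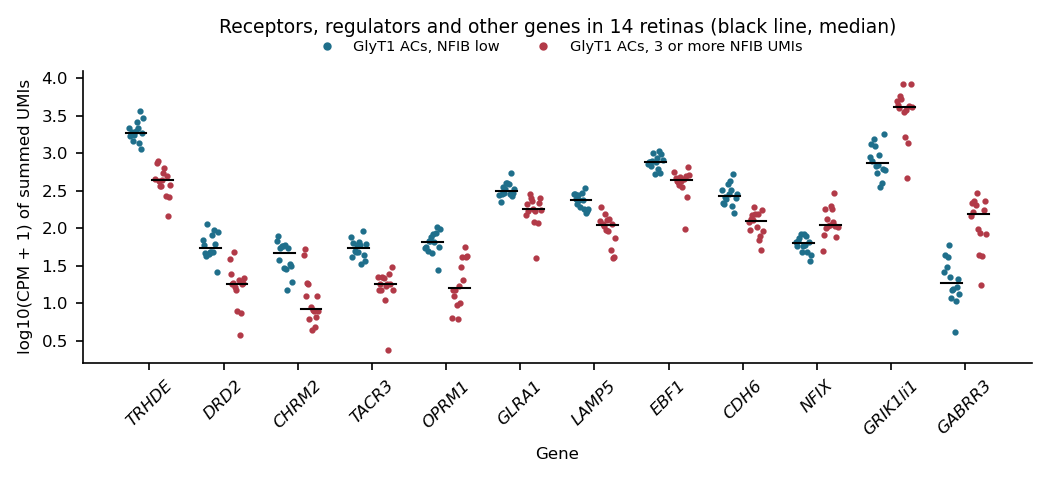
log10(CPM + 1) of 12 genes in members (blue) and GlyT1 nuclei with 3 or more NFIB UMIs (red), 1 point per retina, with the median of 14 retinas as a black line. TRHDE and TACR3 lie higher in members with no overlap, DRD2, CHRM2, OPRM1, GLRA1, LAMP5, EBF1 and CDH6 lie higher with overlap, and NFIX, GRIK1li1 and GABRR3 lie lower.

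Receptors for glycine and GABA were among the genes called. GLRA1, the adult-type glycine receptor subunit, stood at 225 to 541 CPM in members (median 312) and 39.1 to 285 CPM in NFIB-rich nuclei (median 178), a log2 difference of 0.99 ± 0.17 (edgeR adjusted p = 5.527e-05), and was higher in members in 14 of 14 retinas. GLRA3li1 was higher in as many, at 127 to 301 CPM against 73.6 to 208 CPM (log2 difference 0.66 ± 0.08). GLDC, the glycine decarboxylase, fell by 0.76 on the log2 scale. Among GABA receptor subunits, GABRG1 (log2 difference 0.96), GABRG3 (0.77), GABRB1 (0.58) and GABRA2 (0.43) rose, and the rho subunits GABRR1 (-1.36) and GABRR3 (-2.54) fell. GABRR3 stood at 3.10 to 59.3 CPM in members and 16.8 to 294 CPM in NFIB-rich nuclei.

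Channel and cell surface genes went both ways. Of 15 calcium channel genes 7 rose and 5 fell, of 17 cadherins and protocadherins 5 rose and 4 fell, and of 35 lamination and synapse adhesion genes 12 rose and 8 fell, the last with a list median log2 difference of -0.10. The sodium leak channel NALCN had a log2 difference of 1.36, the T-type calcium channel CACNA1I one of 1.25 and the potassium channel accessory gene DPP10 one of 1.00. Of 28 potassium channel genes 8 rose and 5 fell, with KCNH5 (0.84) and KCNQ3 (-0.38) as examples of each. The cadherin CDH6 stood at 158 to 536 CPM in members and 50.5 to 189 CPM in NFIB-rich nuclei (log2 difference 1.34 ± 0.14), higher in members in 14 of 14 retinas. The adhesion genes CNTN6 (1.11), CNTN5 (1.01) and CNTNAP2 (1.13) also rose, and so did EPHA4 (1.51) of the axon guidance list, where 10 of 29 genes rose and 3 fell. Of 29 genes of the release machinery, 11 rose and 4 fell, with SYT7 (1.06) first and SV2B (-1.13) lowest. None of 29 respiratory chain genes passed the test in this edgeR fit.

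The genes that were lower in members included those of other classes. All 5 measured BC markers and 3 of 3 Müller markers fell, while 2 of 2 astrocyte markers rose, SPARCL1 (log2 difference 0.88) by the most. The summed astrocyte markers lay at 191 to 1028 CPM in members and 126 to 597 CPM in NFIB-rich nuclei. Of 8 cone markers, CRX fell (-0.74) and the other 7 did not pass. GRIK1li1 stood at 359 to 1821 CPM in members (median 741) and at 462 to 8434 CPM in NFIB-rich nuclei (median 4198), a log2 difference of -2.15 ± 0.16 (edgeR adjusted p = 2.026e-10). The summed BC markers lay at 762 to 2766 CPM in members and 660.4 to 10550.0 CPM in NFIB-rich nuclei, and the summed Müller markers at 74.5 to 304 and 177 to 832 CPM, with APOE at 0 in both. GABRR3, a rho subunit of GABA-C receptors (-2.54), PTPRQ (-2.52), COL9A1 (-2.39), COLEC12 (-2.34), YU005 (-2.12), PKP2 (-1.995), CHRDL1, a Müller marker (-1.82), TAFA3 (-1.81), EYA2 (-1.76) and PTPN13 (-1.75) were the 10 named as lower. Among regulators, NFIX (-1.10) and NEUROD4 (-0.73) were lower in members, NFIX at 35.7 to 83.9 CPM against 48.8 to 291 CPM.

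Nuclei with no UMI of 8 glial genes gave 685 calls among 4736 genes tested, in place of 1527 among 7859. Of the named genes that could be tested there, 92 kept their call, 34 lost it and 3 reversed. Among those that held, TRHDE (2.47), DRD2 (2.34), OPRM1 (2.65), GLRA1 (1.53), NALCN (1.71), CDH6 (1.87), LAMP5 (1.02) and EBF1 (0.86) remained called as higher in members, on the log2 scale. GRIK1li1 had a log2 difference of -0.89 there and was no longer called (edgeR adjusted p = 0.115). Without called doublets, 1289 of 7310 genes were called, 1169 of them shared with the 1527. There GRIK1li1 (-2.05), GABRR3 (-2.52) and SLC1A3 (-1.67) were still lower in members and TRHDE (2.54), DRD2 (2.38) and TACR3 (2.30) still higher, on the log2 scale, and 25 named genes lost their call. The part of BC RNA in the other genes that were lower was not tested, nor was the part of a lower AC share of the RNA of NFIB-rich nuclei in the genes that were higher. In nuclei with no NFIB UMI and those with 5 or more, SLC6A9 stood at 989 and 470 CPM, PAX6 at 728 and 460.5 CPM and TFAP2A at 123 and 22.6 CPM. TCF4 went the other way, with 1396 and 1583 CPM. The mean depths of these nuclei were 3370 and 6728 UMIs. The gate sets a least number of UMIs for SLC6A9 and for the PAX6 and TFAP2 genes together. Their CPM thus depends on depth and cannot show a lower AC share of the RNA.

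Members were not uniform. In the 2973 members with 1500 or more UMIs, the detection of pairs of regulators and receptors in the same nucleus was counted within each retina, for retinas with at least 10 nuclei on both sides. These shares are given with no test, and detection can depend on depth, so median depths are printed with them. The depths are pooled over the retinas. They also carry the differences in depth between libraries and do not compare nuclei within a retina. EBF3 was found in a median of 42.7% of nuclei with EBF1 and 4.32% of nuclei without it, in the same direction in 15 of 15 retinas. PROX1 was found in 46.7% against 21.3%, also in 15 of 15. The median depths were 3532 UMIs in nuclei with EBF1 and 3190.0 in those without.

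DRD2 went with EBF1 but not with EBF3. EBF1 was found in 77.4% of members with DRD2 and 43.6% of those without, PROX1 in 60.7% against 28.7%, and LAMP5 in 65.2% against 40.0%, all in 13 of 13 retinas, while EBF3 was found in 11.5% against 24.7%, lower in 12 of 13. Nuclei with DRD2 were deeper, with medians of 4005 against 3290.0 UMIs. Members with OPRM1 had EBF1 in 26.3% against 52.0% of those without, lower in 12 of 13 retinas, and EBF3 in 7.14% against 24.2%, lower in 12 of 13. They had GLRA1 in 78.9% against 43.0% and CCBE1 in 57.9% against 37.1%, higher in 13 of 13. Nuclei with OPRM1 were the deeper ones, with medians of 3930.0 against 3296 UMIs. NEUROD2, a proneural regulator, was found in 222 of these members, and they too had EBF1 less often (30.8% against 49.7%, lower in 9 of 9 retinas) and GLRA1 more often (83.3% against 52.9%, 9 of 9), at median depths of 4197 against 3282 UMIs.

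TACR3, too, was found with other genes than EBF1. Members with TACR3 had EBF1 in 36.1% of nuclei against 50.3% of those without (lower in 12 of 13 retinas), GLRA1 in 63.6% against 43.1% (higher in 13 of 13) and OPRM1 in 26.7% against 10.6% (higher in 12 of 13). The median depths were 4002 UMIs with TACR3 and 3283 without. Members with CHRM2 had TACR3 in 27.8% against 10.9% of nuclei, higher in 11 of 11 retinas. They had the neuropeptide gene NPY in 21.4% against 4.87%, higher in 10 of 11. The pooled median depths were 3246 UMIs with CHRM2 and 3374 without.

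TCF4 had no UMI in 306 of these members. MEIS2 was found in 73.1% of members without TCF4 and 27.1% of those with it, CACNA2D3 in 36.7% and 81.7%, and EBF1 in 6.55% and 53.7%, in the same direction in 10 of 10 retinas. The median depth was 4314 UMIs without TCF4 and 3292 with it.

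**Figure D3:**
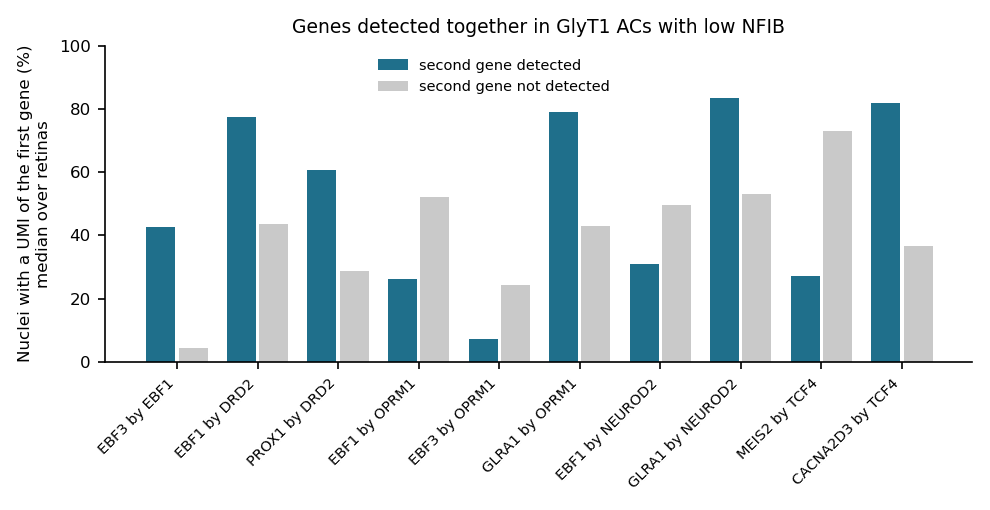
Share of deep members (1500 or more UMIs) with a UMI of the first gene of each pair, in percent and as the median over retinas, in nuclei where the second gene was detected (blue) or not (grey). EBF1 is more frequent with DRD2 and less frequent with OPRM1, and MEIS2 falls from 73.1% without TCF4 to 27.1% with it.

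The second question was how members change with age. Their share of the nuclei was 4.81, 4.93, 4.28, 2.14 and 3.94% in Infancy 1 to 5, 3.25, 3.97, 2.17, 1.71 and 3.85% in Mature 1 to 5, and 2.53, 2.15, 3.28, 0.767 and 1.19% in Senile 1 to 5. The groups overlapped, and Senile 4 and 5 were below all others. The means were 4.02 ± 1.13% (SD, n = 5) in infancy and 1.99 ± 1.02% (n = 5) in senility, a difference of -2.04 percentage points with p = 0.0317 in a 2-sided exact permutation test and 0.25 after Benjamini-Hochberg adjustment over 9 share tests, where 0.00794 is the smallest p that 5 against 5 allows. The mature mean was 2.99 ± 1.01% (exact permutation p = 0.175 against infancy, adjusted 0.265). Within the Cell Ranger 5.0.1 set the means were 4.67, 3.61 and 2.34% for the 3 stages, and within the 7.0.1 set 3.04, 2.58 and 1.75%. The stages did not overlap within the 5.0.1 set (4.28 to 4.93, 3.25 to 3.97 and 2.15 to 2.53%) and overlapped within the 7.0.1 set. With the stage labels permuted only within the library sets, senility against infancy had an exact permutation p of 0.03, or 0.135 after adjustment. At 1500 UMIs the 5.0.1 means were 3.46, 2.47 and 1.26%, and the 7.0.1 means were 0.736, 0.631 and 1.09%, the last becoming 0.392% without Senile 3. The adjusted p passed 0.05 in none of the 9 tests, and a share of nuclei cannot tell fewer cells from less SLC6A9 RNA per nucleus.

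The share also differed between the library sets. At an equal depth of 1500 UMIs, thinned members made up a median of 2.83% of nuclei in the 5.0.1 set (0.873 to 4.17%) and 0.530% in the 7.0.1 set (0.351 to 2.499%). In all nuclei with PAX6 or TFAP2, SLC6A9 lay at 136 to 269 CPM in the first set and 49.8 to 177 CPM in the second, where Senile 3 was the highest, while TCF4 had medians of 402 and 668 CPM and CACNA2D3 of 329 and 467 CPM. Of the other gate genes, NFIB had medians of 110.3 and 188 CPM and TFAP2A of 214 and 162 CPM. The medians of gate genes thus differed between the sets in both directions, and the part of the library set in the shares was not tested. Against a denominator of nuclei with 2 or more UMIs of PAX6 and TFAP2, the members made up 11.01 ± 3.15% in infancy, 8.04 ± 2.80% in maturity and 6.16 ± 3.26% in senility (n = 5 each, exact permutation p = 0.0556 for senility against infancy, adjusted 0.25). Among nuclei with 2 or more UMIs summed over SLC6A9 and the GAD genes, which were nearly all SLC6A9 nuclei, they made up 69.1 ± 10.5%, 58.5 ± 13.2% and 69.7 ± 11.8%. Maturity against infancy had an exact permutation p of 0.206 (adjusted 0.265). With labels permuted only within the library sets the difference was -6.317 points (exact permutation p = 0.01, adjusted 0.09). The sign of the senile minus infant difference in this last share turned at 1500 UMIs. It also turned when members needed 3 or more UMIs of SLC6A9 and the denominator kept its 2 or more.

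**Figure D4:**
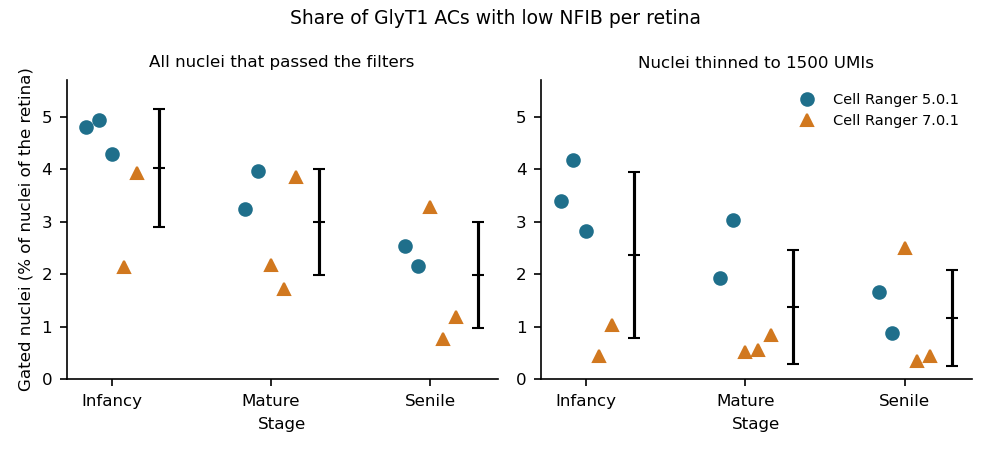
Members as percent of the nuclei of a retina, for all nuclei (left) and nuclei thinned to 1500 UMIs with the gate applied again (right), 1 point per retina with the mean and SD of 5 retinas in black. Means are 4.02% in infancy and 1.99% in senility on the left, and on the right the 7.0.1 libraries (triangles) lie mostly lower than the 5.0.1 libraries (circles), with Senile 3 at 2.499% and Infancy 5 at 1.04% above the lowest circle at 0.873%.

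Per gene, edgeR's quasi-likelihood test on sums per retina, with the Cell Ranger version as a covariate, called 60 of 10229 genes between senile and infant members (0.587%), 55 higher (0.538%) and 5 lower (0.0489%) with age. Between mature and infant members it called 35 (0.342%), 30 higher (0.293%) and 5 lower (0.0489%). The split was more even in some settings, with 56 higher and 34 lower for senility against infancy within the 5.0.1 set (17 and 5 within the 7.0.1 set), and 46 and 40 within the 5.0.1 set and 41 and 28 by DESeq2 for maturity against infancy. Between senile and mature members it called 0, with 988 genes at an unadjusted p under 0.05, and DESeq2 called 18. Of the 55 genes that rose in senile members, 29 were numbered copies of a gene, a type that made up 10.8% of the genes tested. Another 16 were long noncoding (LINC) features (4.85% of the genes tested), 4 antisense features (13.1%) and 1 an unnamed feature (0.303%), and 5 had a plain symbol (70.9%). Copies share sequence with each other, and their reads may be split among them, so these 29 are uncertain.

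Genes were named between stages only where the groups compared did not overlap, or as called genes of the lists. The lack of overlap given below was thus part of the choice and is no further support. IGF2BP2, an RNA-binding protein of developing tissues, was the named gene with the largest change. It stood at 52.1, 32.8, 45.5, 58.4 and 38.1 CPM in Infancy 1 to 5, at 7.32, 9.82, 12.96, 3.01 and 6.61 CPM in Mature 1 to 5, and at 11.1, 0, 1.61, 4.90 and 1.94 CPM in Senile 1 to 5. Members of Senile 1 to 5 summed to 528120, 263639, 629209, 213313 and 528568 UMIs, so the senile levels and the size of the fall rest on few molecules. All infant retinas lay above all others, while mature and senile retinas overlapped. IGF2BP2 fell by 3.37 ± 0.48 on the log2 scale from infancy to senility (edgeR adjusted p = 0.000776) and fell by 2.42 ± 0.36 from infancy to maturity (edgeR adjusted p = 0.00307). Within the 5.0.1 set the senile log2 change was -2.49 (edgeR adjusted p = 0.0382) and within the 7.0.1 set -4.30 (0.0375), and it was called whichever retina was left out. The mature call was lost within the 7.0.1 set (log2 change -2.57, edgeR adjusted p = 0.167). In sums thinned to equal totals, where no gene was called, the senile log2 change was -3.63 (edgeR adjusted p = 0.299) and the mature one -3.27 (0.379). It is 1 of 9 measured genes of the developmental RNA-binding and growth list, of which the other 8 did not pass.

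FAM117B was at 97.1, 74.2, 88.0, 82.6 and 107 CPM in the 5 infant, 67.1, 67.7, 76.8, 73.8 and 77.5 CPM in the 5 mature, and 38.8, 62.0, 40.2, 39.2 and 60.0 CPM in the 5 senile retinas, each in the order of their numbers. Infant and senile retinas did not overlap, and the mature retinas overlapped with the infant ones only. It fell by 0.93 ± 0.18 on the log2 scale from infancy to senility (edgeR adjusted p = 0.0137), a call that was lost without Infancy 5 or Senile 1 and within either library set alone. JCAD, a protein of endothelial cell junctions, was at 10.7, 11.2, 9.10, 10.1 and 11.3 CPM in infancy, at 31.7, 21.8, 21.3, 28.6 and 9.45 CPM in maturity, and at 27.7, 23.3, 29.0, 34.3 and 29.0 CPM in senility. Infant and senile retinas did not overlap, and the mature retinas overlapped with both. The log2 difference between senility and infancy was 1.45 ± 0.31 (edgeR adjusted p = 0.0358), and 11 of the 15 fits with a retina left out did not call it.

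ETFDH, which hands electrons from fatty acid oxidation to the respiratory chain, was at 8.29, 5.18, 10.1, 8.06 and 7.06 CPM in infancy, at 9.76, 20.7, 18.5, 22.6 and 22.7 CPM in maturity, and at 22.2, 15.5, 24.2, 49.0 and 17.4 CPM in senility. Infant and senile retinas did not overlap, and the mature retinas overlapped with both. The log2 difference between senility and infancy was 1.57 ± 0.35 (edgeR adjusted p = 0.0475), and 12 of 15 fits with a retina left out did not call it. PDE6H, a cone phosphodiesterase subunit, was at 85.3, 45.7, 33.4, 96.7 and 45.9 CPM in infancy, at 40.3, 57.8, 103, 90.3 and 63.3 CPM in maturity, and at 74.0, 116, 415, 196 and 259.5 CPM in senility, where Senile 3 was the highest and Senile 1 within the infant range. Its log2 difference was 1.51 ± 0.33 (edgeR adjusted p = 0.043), and without the Cell Ranger covariate the edgeR adjusted p was 0.0709. It was not called in 12 of the 15 fits with a retina left out. The 8 cone markers tested, of which PDE6H alone was called, had a median log2 difference of 1.10, and their summed level lay between 318 and 619.7 CPM in infant and between 701 and 1817 CPM in senile members, with no overlap. Rod and horizontal cell markers had differences of the same sign. So had ganglion cell (median 0.51), Müller (0.35), other AC subtype (0.32), astrocyte (0.18) and BC markers (0.16), while the 1 microglia marker tested had -1.99. The 3 horizontal markers tested had a median log2 difference of 1.15, with summed levels of 22.1 to 58.2 CPM in infant and 60.7 to 103 CPM in senile members and ONECUT3 at 0. The 3 rod markers tested had a median of 1.03, with summed levels of 24.4 to 91.9 and 68.2 to 183 CPM. None of these 3 horizontal and 3 rod markers was called by edgeR, and the part of such RNA in the other senile genes was not tested.

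**Figure D5:**
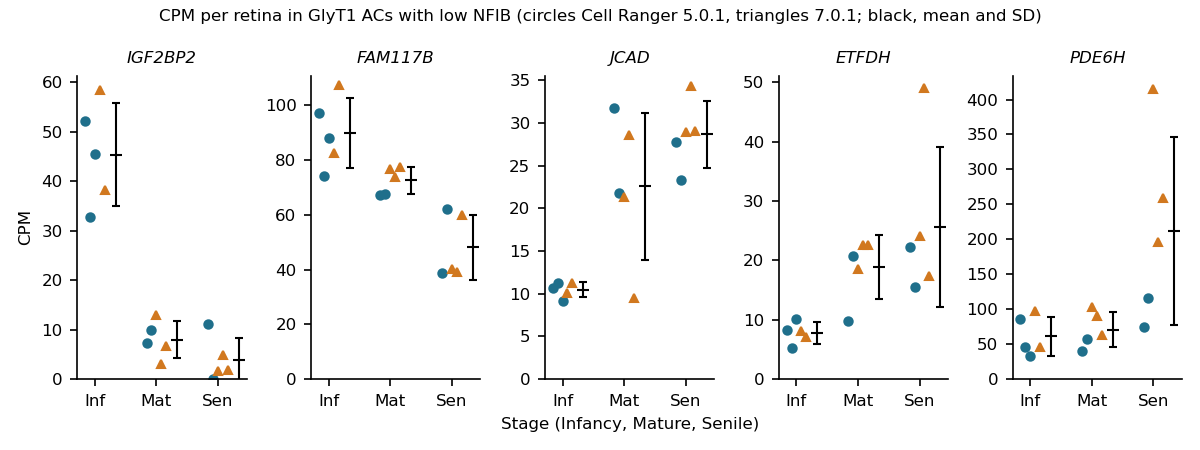
CPM of 5 genes in members by stage, 1 point per retina (circles Cell Ranger 5.0.1, triangles 7.0.1), with the mean and SD of 5 retinas in black. IGF2BP2 and FAM117B are lower in senile than in infant retinas, and JCAD and ETFDH are higher, with no overlap, which the rule that named these genes required. PDE6H spreads from 74.0 to 415 CPM in senile retinas.

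Another 3 genes with a plain symbol were called between senile and infant members although their groups overlapped. They were KCNV2, a potassium channel subunit of photoreceptors (log2 difference 2.04, edgeR adjusted p = 0.0329), SLC25A21 (2.33, 0.0395) and the helicase DDX41 (-1.42, 0.00772), and they are named here after their values were seen. None of the lists of glycine, GABA or glutamate receptors, AC regulators, adhesion, guidance or channel genes had a member called between stages by edgeR. Over all genes 0.587% were called for senility and 0.342% for maturity against infancy. Lists of this size would hold few calls or none at such shares, so their lack shows no stability of these genes. Among the markers outside the gate, TCF4 averaged 1484 ± 212, 1605 ± 217 and 1428 ± 364 CPM (SD, n = 5) in infant, mature, and senile members, and EBF1 691 ± 109, 775 ± 171 and 766 ± 186 CPM, so their means differed by less than the spread between retinas. The 30 respiratory chain genes had a median log2 difference of 0.40 between senile and infant members, with none called. GAD-gated ACs were too few for a test of whether these changes differ between members and other ACs, so none is called particular to members.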

How the data were processed

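Nuclei from frozen TS retinas were profiled with 10x 3' libraries, 1 per retina. The authors aligned reads with Cell Ranger to TS_3.0 and deposited raw UMI counts per nucleus over 83605 features (labels name versions 5.0.1 and 7.0.1, file headers 6.1.2 and 7.0.1). Quality limits were over 200 and below 6000 genes, and mitochondrial counts below 5%. The members and gene lists were chosen with earlier results of these data known. Sums of counts, 1 for each class of a retina, were tested with edgeR 4.0.16 (quasi-likelihood, TMM, filterByExpr, Benjamini-Hochberg, threshold 0.05) in R 4.3.3, with the Cell Ranger version as covariate for stage and the retina as block between classes. A class needed 10 nuclei in a retina. GAD-gated ACs were too few to test, and a comparison with another gate on ACs is not reported here. Shares were tested by 2-sided exact permutation (scipy 1.17.1). Doublets were ranked with Scrublet (scanpy 1.11.5), marked at a preset number per library and kept. DESeq2 1.42.0, other filters, scalings, gates, depths and left-out retinas were alternatives. Named genes were up to 10 per direction with the largest called log2 change, a plain symbol, at least 10 CPM in the higher group, and the same sign in every retina or, between stages, no overlap, plus called genes of the lists. The fits were tested on simulated data. Depth ranged from 213313 to 1476114 summed UMIs of members per retina.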

Additional observations from a re-analysis of the deposited data

Results flagged for a closer look

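ETFDH stood at 48.97 CPM in the members of Senile 4, where the next senile retina held 24.15 CPM, a gap that is large for a group of 5. Members of Senile 4 had the fewest summed UMIs, 213313, so this value rests on few molecules. Of 24 groups of 5 retinas examined in this way 1 stood out, and chance gives about 5%.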

How the results depend on the processing

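The shares of all nuclei and of PAX6 or TFAP2 nuclei kept their direction over all 15 retinas under each other gate, depth, doublet and permutation setting run. Within the 7.0.1 set at 1500 UMIs, though, the senile mean of 1.09% was above the infant 0.736% and mature 0.631%. Leaving out 1 retina, the differences ran from -2.505 to -1.731 (senile minus infant), -1.501 to -0.7102 (mature minus infant) and -1.329 to -0.7003 percentage points (senile minus mature) of all nuclei, and from -5.982 to -3.845, -4.065 to -1.972 and -3.02 to -0.8829 of PAX6 or TFAP2 nuclei. The share of SLC6A9 or GAD nuclei, 0.65 points higher in senility than infancy, became -0.2269 at 1500 UMIs per nucleus and -9.919 with 3 or more UMIs of SLC6A9, and ran from -3.781 to 3.461 with 1 retina left out, below 0 without Infancy 4, Infancy 5, Senile 2 or Senile 3. Its senile minus mature difference became -0.5227 with 3 or more UMIs of SLC6A9 (6.798 to 15.19 with 1 retina left out, and -14.54 to -7.733 for mature minus infant). In the setting of 3 or more UMIs only the members needed them. The denominator kept its 2 or more, so that share also depends on the SLC6A9 UMIs of each nucleus.

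Against NFIB-rich nuclei, 2293 were called with no filter, 810 with no replicate block, 685 without glial RNA and 1299 to 1476 with 1 retina left out. Without glial RNA SV2A (-8.2e-05), CNTNAP5li1 (0.56) and DRD1 (0.25) reversed.

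Stage calls moved most. For senility against infancy there were 345 with no filter, 38 with a replicate block, 22 within Cell Ranger 7.0.1, 90 within 5.0.1, 34 with 3 or more UMIs of SLC6A9, 10 in nuclei free of other-class markers, 0 in sums thinned to equal totals and 50 to 70 with 1 retina left out. For maturity against infancy there were 69 by DESeq2, 268 with no filter, 22 without the version covariate, 20 with a replicate block, 7 within 7.0.1, 86 within 5.0.1, 21 without doublets, 23 with 3 or more UMIs of SLC6A9, 5 in nuclei free of other-class markers, 0 in thinned sums, and 25 to 56 with 1 retina left out (56 without Senile 3). For senility against maturity there were 18 by DESeq2, 188 with no filter, 5 within 5.0.1 and 0 to 1 with 1 retina left out (1 without Senile 4). Some of these settings held fewer genes or retinas and others did not, and the cause of the moves was not tested.

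Replicate numbers shared between stages did not pair the retinas. In residuals from stage means, same-numbered retinas correlated from -0.357 to 0.479, and 4 of 15 correlated best with their own number. These residuals still carry the library set. With the Cell Ranger version also removed, the correlations ran from -0.284 to 0.165, and 1 of 15 correlated best with its own number. Comparisons with GAD-gated ACs, and with NFIB-rich nuclei at 1500 UMIs, could not be fitted.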
